A study of Mus musculus with 5 samples.

Results

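PU.1 is a transcription factor of the ETS family, and its binding was read here around 6 mouse genes of early lymphocyte development, Dntt, Rag1, Rag2, Vpreb1, Vpreb3 and Igll1. The members are the windows of the deposited count table that lie in the gene span of each gene, in mm10, or within 20 kb of it. They came to 48 of 329996 listed windows, and 43 of them had enough counts to be tested. Neighbouring tested windows with gaps of up to 100 bp form a site, and 9 of 60527 sites in the genome belong to these genes. Of these sites, 4 lie around Dntt, 2 around Rag1 and Rag2, 2 around Vpreb1 and Igll1, and 1 at Vpreb3. The Rag1 and Rag2 surroundings overlap, as do those of Vpreb1 and Igll1, and a shared site was counted once.

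The assay was ChIP-seq, in which an antibody pulls down crosslinked chromatin and its DNA is sequenced. It compared conventional dendritic cells (cDCs), which present antigen to T cells, with plasmacytoid dendritic cells (pDCs), known for type I interferon production. Both came from Flt3L culture and a strain labelled C56BL/6, with no treatment or genetic change given in the labels. There were 2 biological replicates per cell type with a PU.1 antibody, and 1 input library without antibody, which came from cDCs. How pDCs and cDCs were separated is not given in the sources used here, and in such bulk material a binding event in fewer cells and weaker binding per cell cannot be told apart.

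The 6 genes act together in the making of antigen receptors. Rag1 and Rag2 form the recombinase that cuts DNA in V(D)J recombination, and Dntt encodes terminal deoxynucleotidyl transferase, which adds untemplated nucleotides to the joints. Vpreb1 and Igll1, also called lambda5, encode the surrogate light chain that pairs with the immunoglobulin mu chain in the pre-B receptor, and Vpreb3 encodes a VpreB-like protein of B-lineage cells. Lymphoid progenitors are the cells known for these genes, and pDCs are known to carry Rag and Dntt transcripts as well. RNA was not measured here, so every value below is PU.1 signal on chromatin.

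None of the promoters of the 6 genes held a listed window, when a promoter is taken as the 250 bases before a RefSeq gene start and the 50 bases after it in GRCm38.p6. Of all 32851 promoters in that table, 19.2% held at least 1 listed window. The nearest listed window lay 2215 bp from the Dntt promoter, 1119 bp from that of Rag1, 1146 bp from Vpreb1, 4640 bp from Vpreb3, 6416 bp from Igll1 and 26140 bp from Rag2. The Vpreb3 start in that table lies inside its gene span, and the beginning of the span was not read as a promoter. One promoter of a neighbour did hold windows, that of Top3b, a topoisomerase gene beside Vpreb1, with 3. The promoters of Dntt (chr19:41029025-41029324, + strand) and Vpreb3 (chr10:75948050-75948349, + strand) are shown because sites near these genes differed between the cell types. That of Rag1 (chr2:101649483-101649782, - strand) is shown as the nearest to a site among the member promoters, and that of Top3b (chr16:16870486-16870785, + strand) because a site covers it. Each runs 5′ to 3′ along the gene, and capitals mark GGAA, the core that ETS factors bind, on either strand (printed as TTCC on the other strand).
Dntt: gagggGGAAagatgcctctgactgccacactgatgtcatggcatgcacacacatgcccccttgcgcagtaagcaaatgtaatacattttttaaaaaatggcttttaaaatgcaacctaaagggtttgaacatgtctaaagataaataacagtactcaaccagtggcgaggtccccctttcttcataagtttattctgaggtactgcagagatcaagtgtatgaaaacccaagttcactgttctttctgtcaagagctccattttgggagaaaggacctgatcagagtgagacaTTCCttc
Vpreb3: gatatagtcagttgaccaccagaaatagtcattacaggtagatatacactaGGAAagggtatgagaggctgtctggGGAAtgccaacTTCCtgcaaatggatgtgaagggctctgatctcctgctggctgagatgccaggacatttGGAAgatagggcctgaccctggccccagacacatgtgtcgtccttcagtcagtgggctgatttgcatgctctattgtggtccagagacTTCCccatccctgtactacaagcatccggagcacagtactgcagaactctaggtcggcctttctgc
Rag1: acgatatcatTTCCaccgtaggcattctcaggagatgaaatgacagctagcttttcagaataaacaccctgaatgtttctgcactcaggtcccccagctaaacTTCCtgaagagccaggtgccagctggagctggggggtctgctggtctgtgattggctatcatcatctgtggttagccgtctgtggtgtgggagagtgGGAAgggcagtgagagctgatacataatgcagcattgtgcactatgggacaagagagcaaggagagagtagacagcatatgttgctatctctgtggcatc
Top3b: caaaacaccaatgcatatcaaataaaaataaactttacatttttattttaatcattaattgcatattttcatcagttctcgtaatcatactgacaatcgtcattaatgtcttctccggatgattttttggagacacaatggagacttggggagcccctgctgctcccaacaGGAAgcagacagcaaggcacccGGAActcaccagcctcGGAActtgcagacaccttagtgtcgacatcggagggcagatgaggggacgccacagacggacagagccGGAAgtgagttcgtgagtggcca

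GGAA was found 2 times in the Dntt promoter, 3 times in those of Rag1, Rag2 and Igll1 and 5 times in those of Vpreb1 and Vpreb3, and 96.0% of all promoters hold it. The longer PU.1 motif GAGGAAGT, which contains GGAA, was in 0 of the 6 promoters and in 3.20% of all. The composite element of ETS and interferon regulatory factors, which contains GGAA too, was in 0 of the 6 and in 0.731% of all. The E-box CANNTG, read by E proteins, was found between 1 and 5 times in each of the 6 promoters, and 72.3% of all promoters hold it. These matches describe the letters of promoters where no PU.1 window was listed; the sequence under the PU.1 sites themselves was not analysed here.

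PU.1 signal was higher in pDCs at 3 sites upstream of Dntt and at 1 site in Vpreb3, and higher in cDCs at 1 site far upstream of Rag1. By site, 4 of 9 were thus higher in pDCs, where 8.45% of all sites in the genome were, and 1 of 9 was higher in cDCs, against 6.02% of all. The other 4 sites were not called. With library-size scaling the split of the 9 sites was 3 to 1, and over the genome 7.01% of sites were called toward pDCs and 8.32% toward cDCs. With library sizes taken from repeat windows it was 2 to 1, with 1.7% and 6.36% over the genome. By window, 18 of 43 were higher in pDCs (7.96% of all windows) and 2 in cDCs (6.39% of all). At the strongest window of each site the 2 pDC libraries lay on one side of the 2 cDC libraries in all 9 sites, above them in 8, and 57.4% of all sites showed such a separation. That holds in CPM, which here are counts scaled to library sizes adjusted by TMM factors. Scaled to plain library totals, 7 of the 9 sites were apart (57.5% of all sites), and those near Vpreb1 and 22.6 kb downstream of the Dntt start overlapped. The median log2 fold at those windows, pDC minus cDC, was 0.90 over the 9 sites and 0.03 over all sites. The test throughout was the quasi-likelihood test of edgeR, with n = 2 libraries per cell type and Benjamini-Hochberg adjustment over the whole table. A standard error (SE) follows each log2 fold, and the p of a site combines its windows by the Simes method.

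**Figure D1:**
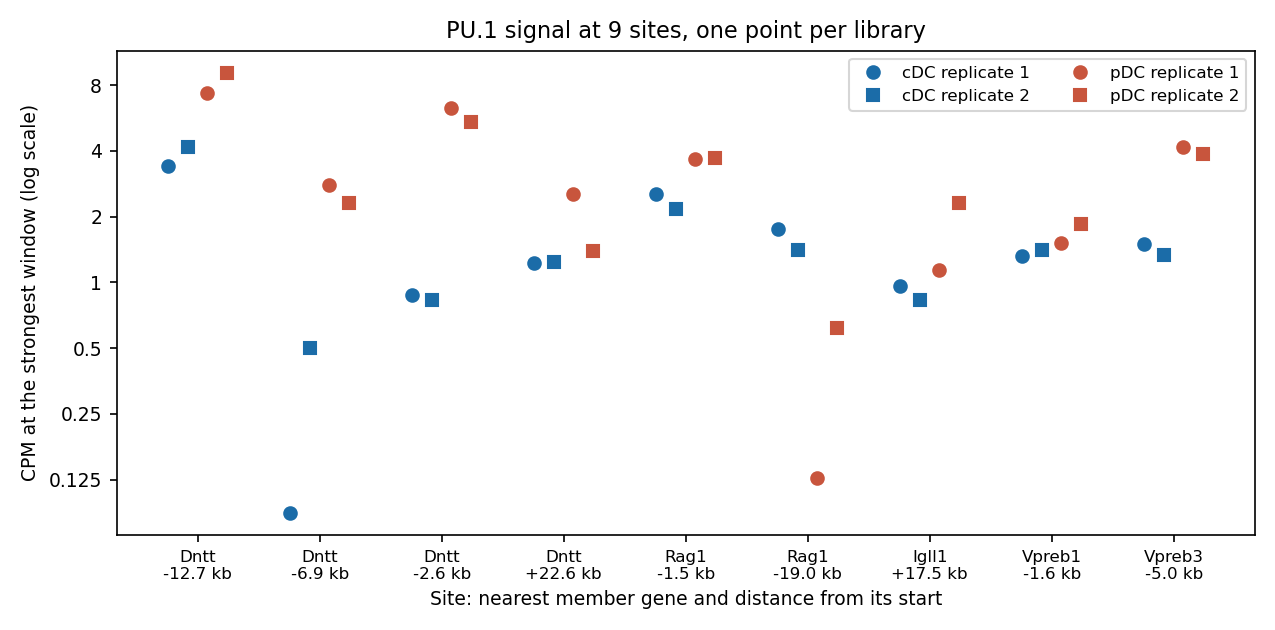
PU.1 signal in CPM with TMM-adjusted library sizes (log axis) at the strongest window of each of the 9 sites, with 1 point per library, cDC in blue and pDC in red. The pDC points lie above the cDC points at 8 sites and below them at the site 19 kb upstream of Rag1.

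Signal at these sites ranged from low to above that of most sites in the genome. Mean CPM at the strongest window, over the 4 PU.1 libraries, ran from 0.978 to 6.01 with a median of 1.6, against a median of 1.99 for all sites. Widths ran from 10 to 360 bp, where the median site measured 210 bp. The strongest was the Dntt site 12.7 kb upstream, above 85.8% of all sites, and the weakest the site 19 kb upstream of Rag1, above 7.06%. Input counts at these windows were between 0 and 4.

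**Figure D2:**
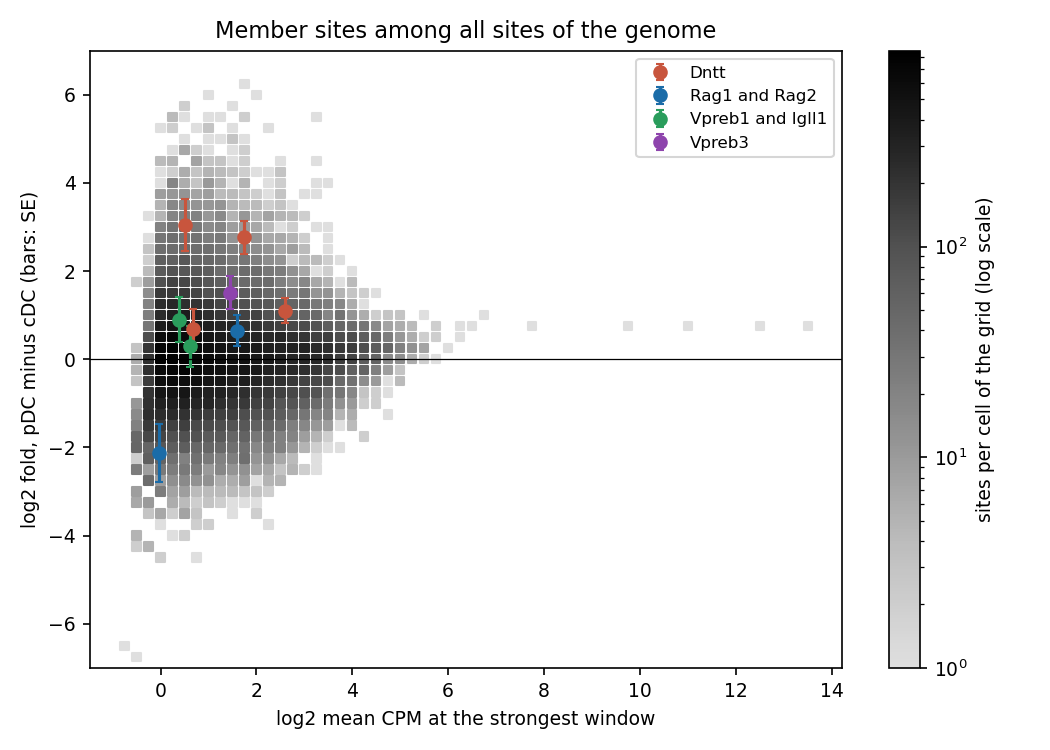
Log2 fold of pDC minus cDC at the strongest window against its log2 mean CPM, for the 9 sites (coloured points, bars are SE) over all 60527 sites (grey, on a log colour scale). The sites at -6.92 and -2.57 kb from Dntt, with log2 folds of 3.05 and 2.77, lie above the bulk of the cloud, whose sparse upper part reaches higher folds.

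At Dntt (gene ID 21673, chromosome 19, 41029275 to 41059525, + strand), the upstream flank held 3 sites, all higher in pDCs. The site nearest the gene (41026551 to 41026810) had its strongest window 2.57 kb upstream of the start. That window had 10 counts in each cDC replicate, and 50 and 35 in pDC replicates 1 and 2. In CPM, cDCs had 0.879 and 0.830 CPM and pDCs 6.32 and 5.41 CPM, so the groups did not overlap. The log2 fold was 2.77 ± 0.38 (edgeR adjusted p = 9.18e-05 for the site), and all 6 of its windows were called. The call held in every alternative that gave the site a value, with log2 folds between 2.26 and 2.87.

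The middle site (41022251 to 41022410) lay 6.92 kb upstream. Its strongest window had 1 and 6 counts in cDC replicates 1 and 2, and 22 and 15 in pDC replicates 1 and 2. In CPM these are 0.0879 and 0.498 in cDCs and 2.78 and 2.32 in pDCs, with cDC replicate 1 the lowest and no overlap. The log2 fold was 3.05 ± 0.59 (edgeR adjusted p = 0.00170 for the site). From the summed counts, scaled to TMM-adjusted library sizes, the ratio of pDC to cDC was 8.61. Its exact binomial 95% interval of 3.79 to 22.9, scaled alike, covers counting error only. Without cDC replicate 2, which leaves the single count of cDC replicate 1, the log2 fold was 4.65, and without cDC replicate 1 it was 2.33, with the site called both times (edgeR adjusted p = 0.00153 and 0.0404). By the DESeq2 Wald test the call ended (adjusted p = 0.0575).

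The far site (41016401 to 41016760), 12.7 kb upstream, was the strongest of all 9, with signal in both cell types, and lies 4.93 kb upstream of the start of the noncoding gene C330026H20Rik. Its strongest window had 39 and 50 counts in cDC replicates 1 and 2, and 58 and 59 in pDC replicates 1 and 2. The cDC libraries thus stood at 3.43 and 4.15 CPM and the pDC libraries at 7.33 and 9.12 CPM, again without overlap. The log2 fold was 1.11 ± 0.28 (edgeR adjusted p = 0.0311 for the site), and 4 of 8 windows were called. The call ended without cDC replicate 1 (log2 fold 0.97, adjusted p = 0.533) and without cDC replicate 2 (1.25, adjusted p = 0.151), where the fit rests on 3 libraries. It also ended with library-size scaling (0.98, adjusted p = 0.0594), with library sizes from repeat windows (0.53), against a minimum fold of 1.5 and by DESeq2.

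**Figure D3:**
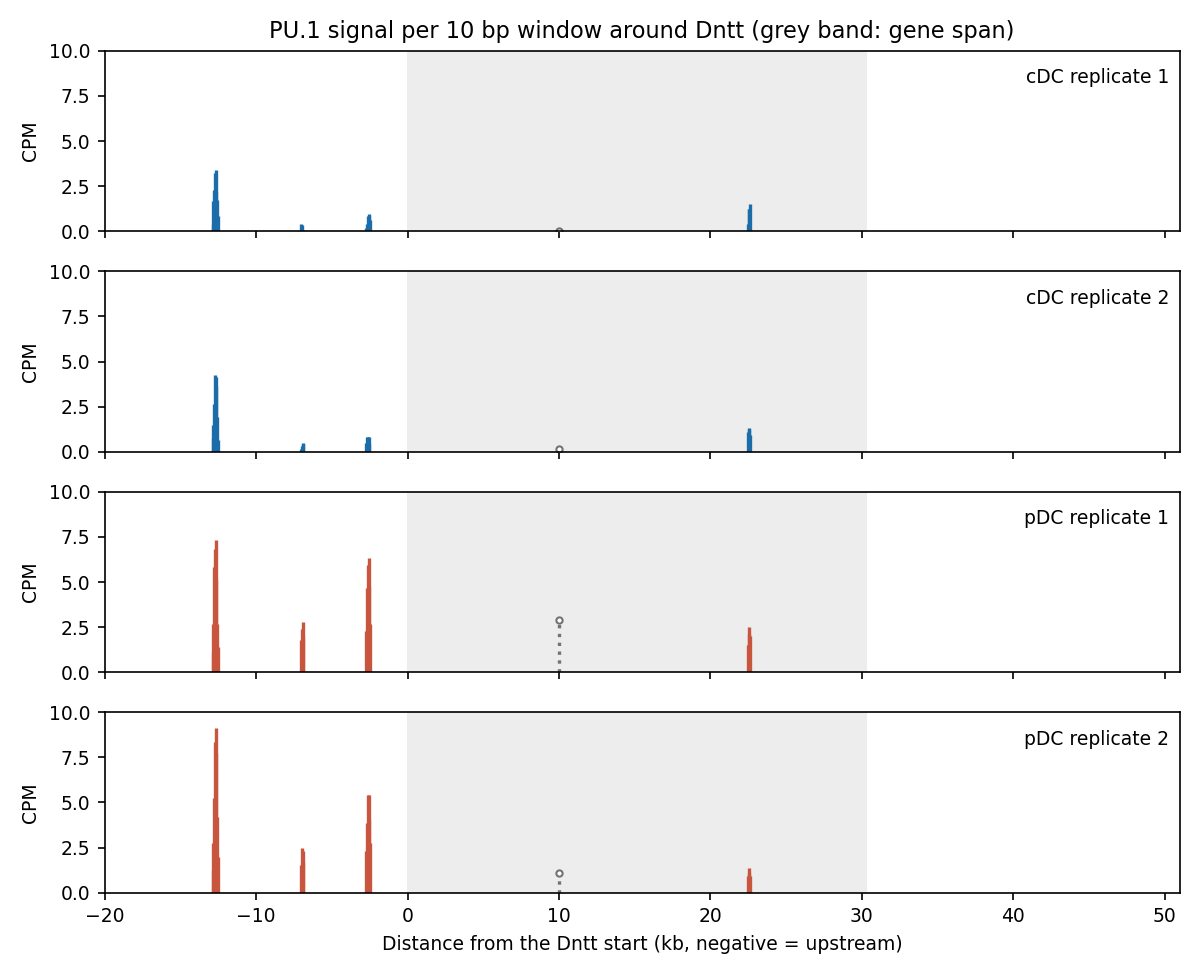
PU.1 signal in CPM of each listed window against distance from the Dntt start in kb, for the 4 PU.1 libraries, cDC in blue and pDC in red, with the gene span in grey and the untested window dotted with an open circle. The site at -2.57 kb reaches 6.32 and 5.41 CPM in pDCs and stays under 1 CPM in cDCs, while the site 12.7 kb upstream is present in all 4 libraries.

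The 3 upstream sites had folds of unequal size, and their counts can be set against each other within a library, with no scaling. The count at the site at -2.57 kb was 25.6% and 20.0% of that 12.7 kb upstream in cDC replicates 1 and 2, and 86.2% and 59.3% in pDC replicates 1 and 2. Exact binomial 95% intervals were 11.4 to 52.3% and 9.04 to 39.9% in cDCs, and 57.9 to 128% and 37.9 to 91.6% in pDCs. At -6.92 kb the count was 2.56% and 12.0% in cDCs against 37.9% and 25.4% in pDCs. For both sites the pDC libraries thus lay above the cDC libraries, and with 2 against 2 the exact two-sided permutation test gave p = 0.333, the smallest it can give.

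**Figure D4:**
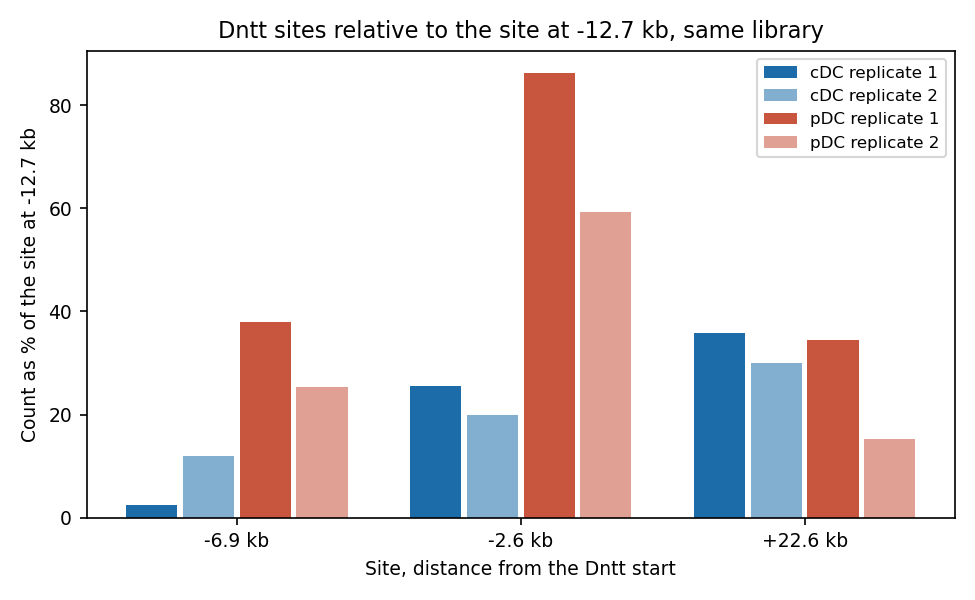
Counts at the strongest window of 3 Dntt sites as a percentage of the count at the site 12.7 kb upstream in the same library, with 1 bar per library. The site at -2.57 kb reaches 59.3% and 86.2% in pDCs and 20.0% and 25.6% in cDCs, while at 22.6 kb the libraries of the cell types overlap.

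Inside the Dntt gene span the picture was mixed. A site 22.6 kb downstream of the start (41051751 to 41051910) had 14 and 15 counts in cDC replicates 1 and 2, and 20 and 9 in pDC replicates 1 and 2. Its log2 fold was 0.68 ± 0.47 and it was not called (edgeR adjusted p = 0.763). In CPM the libraries stood at 1.23 and 1.24 in cDCs and 2.53 and 1.39 in pDCs. As a percentage of the site 12.7 kb upstream it stood at 35.9% and 30% in cDCs and 34.5% and 15.3% in pDCs, so on that scale the groups overlapped. A lone window within the gene (41039251 to 41039260) had 0 and 2 counts in cDCs, and 23 and 7 in pDC replicates 1 and 2. The filter on low counts removed it, so it is no site and has no place in the counts above. The ratio of its summed counts, scaled to TMM-adjusted library sizes, was 24.4, with an exact binomial 95% interval of 6.20 to 211. With no filter it had a log2 fold of 4.39 ± 0.81 and was called (edgeR adjusted p = 0.000143 for the window), and its 2 pDC libraries differed by more than the cDC ones.

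Summed over the gene span with 20 kb on each side, the Dntt locus was higher in pDCs, as was that of Vpreb3, while the loci of Rag1, Rag2, Vpreb1 and Igll1 were not called. By locus 2 of 6 were higher in pDCs, where 11% of 16240 gene loci were, and 0 were higher in cDCs, against 7.98% of all. By unadjusted p below 0.05 these counts were 3 and 0, and by DESeq2 2 and 0. With library-size scaling the members stayed at 2 and 0, and over all loci the shares were 6.45% and 11.2%. The Dntt locus summed to 25.2 and 28.9 CPM in cDC replicates 1 and 2 and 76.8 CPM in both pDC replicates, a log2 fold of 1.51 ± 0.18 (edgeR adjusted p = 6.02e-05). Flanks set that value, since it was 2.10 with 10 kb, 0.88 with 50 kb and 0.50 with the gene span alone, where the call ended (edgeR adjusted p = 0.489). It also ended with library sizes from repeat windows, at 0.97.

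Rag1 (gene ID 19373, chromosome 2, 101638252 to 101649532, - strand) and Rag2 (gene ID 19374, 101624712 to 101632528, + strand) lie tail to tail beside each other, and no window was listed in either gene span or between them. The stronger of their 2 sites (101650901 to 101651160) lay 1.52 kb upstream of the Rag1 start. Its strongest window had 29 and 26 counts in cDC replicates 1 and 2, and 29 and 24 in pDC replicates 1 and 2. In CPM the values were 2.55 and 2.16 in cDCs and 3.67 and 3.71 in pDCs. The groups did not overlap, but the log2 fold of 0.65 ± 0.35 did not pass (edgeR adjusted p = 0.366 for the site), and it fell to 0.11 with library sizes from repeat windows.

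The second Rag site (101668451 to 101668510) lay 19 kb upstream of Rag1, just inside the flank, and 2.79 kb upstream of the start of the noncoding gene Gm34041. It was the only member site with more signal in cDCs. Its strongest window had 20 and 17 counts in cDC replicates 1 and 2, 1 and 4 in pDC replicates 1 and 2, and 0 in the input. The cDC libraries stood at 1.76 and 1.41 CPM and the pDC libraries at 0.126 and 0.618 CPM, with no overlap. The log2 fold was -2.14 ± 0.66 (edgeR adjusted p = 0.0171 for the site). Scaled to TMM-adjusted library sizes, the pDC to cDC ratio of summed counts was 0.220, with an exact binomial 95% interval of 0.0675 to 0.561. The call ended without cDC replicate 1 (log2 fold -1.96), without cDC replicate 2 (-2.27), without pDC replicate 1 (-1.34) and by DESeq2, and without pDC replicate 2 it stood at -3.52.

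The 2 Rag sites have folds of opposite sign, which a locus sum hides. The Rag1 locus, which holds both, summed to 13.8 and 12.4 CPM in cDCs and 14.5 and 18.1 CPM in pDCs, a log2 fold of 0.31 ± 0.29 (edgeR adjusted p = 0.512). For the Rag2 locus, which reaches the near site only, it was 0.64 ± 0.30 (edgeR adjusted p = 0.152). Whether the folds of the 2 sites differ from each other was not tested.

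The surrogate light chain genes Vpreb1 (gene ID 22362, chromosome 16, 16868401 to 16869255, - strand) and Igll1 (gene ID 16136, 16860671 to 16863985, - strand) had 2 weak sites, neither of them called. The site nearest Vpreb1 (16870651 to 16871010) had its strongest window 1.55 kb upstream of Vpreb1, which is also 0.069 kb downstream of the Top3b start, and it covers part of the Top3b promoter printed above. That window had 15 and 17 counts in cDC replicates 1 and 2, and 12 counts in each pDC replicate, with 4 in the input. In CPM it stood at 1.32 and 1.41 in cDCs and 1.52 and 1.85 in pDCs. The log2 fold was 0.29 ± 0.46 (edgeR adjusted p = 0.992 for the site), and with library sizes from repeat windows it turned to -0.29. To which gene this site belongs was not tested.

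The other site (16846451 to 16846460) lay 17.5 kb downstream of the Igll1 start, past its far end, and rested on a single tested window. It had 11 and 10 counts in cDC replicates 1 and 2 and 9 and 15 in pDC replicates 1 and 2, or 0.967 and 0.830 CPM against 1.14 and 2.32 CPM. Its log2 fold of 0.90 ± 0.51 did not pass (edgeR adjusted p = 0.268 for the site). The filter removed 3 further windows beside it, with 7 to 15 counts in each PU.1 library. As loci, Vpreb1 had a log2 fold of 0.28 ± 0.33 and Igll1 of 0.35 ± 0.32 (edgeR adjusted p = 0.610 and 0.493), with no window inside either gene span.

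Vpreb3 (gene ID 22364, chromosome 10, 75943024 to 75949657, + strand) had its only site within the gene span. The site (75943201 to 75943360) begins 177 bp inside the low end of the span, which on the + strand is where the span begins. To which gene start it belongs was not tested. Its strongest window lies 5.0 kb upstream of the Vpreb3 start given in the promoter table. It also lies 2.63 kb upstream of the start of Gm867, which is nearer. That window had 17 and 16 counts in cDC replicates 1 and 2, and 33 and 25 in pDC replicates 1 and 2. In CPM it stood at 1.49 and 1.33 in cDCs and 4.17 and 3.86 in pDCs, without overlap. The log2 fold was 1.51 ± 0.38 (edgeR adjusted p = 0.0121 for the site), and all 4 tested windows were called higher in pDCs. One more listed window, with 6 to 11 counts in each PU.1 library, was not tested. The call ended without cDC replicate 1 (log2 fold 1.58), without cDC replicate 2 (1.42), with library sizes from repeat windows (0.98), against a minimum fold of 1.5 (adjusted p = 0.0664) and by DESeq2.

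As a locus Vpreb3 rests on that site alone, with 4.48 and 4.73 CPM in cDCs and 13.6 and 12.7 CPM in pDCs and a log2 fold of 1.51 ± 0.35 (edgeR adjusted p = 0.00597). The locus call ended without cDC replicate 1 (1.47) and without cDC replicate 2 (1.55), and against a minimum fold of 1.5. It ended too with library sizes from repeat windows (1.00), and with flanks of 50 kb, which take in more neighbours, the log2 fold was 0.30.

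Signal over the input depended on how the input was scaled. Scaled by the total of each library, 4 of 43 member windows were at least 2-fold above the input in cDCs (35.4% of all windows) and 12 of 43 in pDCs (31.3% of all), in an edgeR fit of all 5 libraries. The pDC windows were 4 in each of the Dntt sites 12.7 and 2.57 kb upstream, 3 in the Vpreb3 site and the single window of the Igll1 site. In cDCs they were 2 in the Dntt site 12.7 kb upstream and 2 in the Rag1 site at -19 kb. The input had 0 counts at the strongest windows of the Igll1 site and of that Rag1 site. The Dntt site at -6.92 kb, called between the cell types, had 0 windows called above input in either. Its strongest window had a log2 fold over input of -1.74 in cDCs and 1.17 in pDCs (edgeR adjusted p = 0.239 and 0.315). In pDCs that window thus passed the 2-fold minimum but not the p threshold. With library sizes from repeat windows, 36 and 41 of 43 windows passed, where 97.7% and 91.8% of all windows did, and with sizes from all windows outside the repeats 0 and 0, where 1.38% and 1.71% of all windows passed. Having no replicate, the input borrowed its spread from the other libraries in this fit, and it was made from cDCs but served for pDCs too.

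Other genes of the same pathways were read by locus, and their counts stand against 11% of all loci higher in pDCs and 7.98% in cDCs. These lists and the marker lists below were chosen with earlier results of these data known. The contrast with all loci thus describes the lists and is no independent test. For regulators of early lymphoid genes, 7 of 12 loci rose in pDCs, 5 were not called and 0 fell, with a median log2 fold of 0.80 against 0.05 for all loci. They were led by Pax5, the commitment factor of B cells, at 1.01 ± 0.16, with 48.4 and 51.9 CPM in cDCs and 107 and 94.7 CPM in pDCs. Foxo1, an activator of Rag transcription, lay at 0.94 ± 0.20 and Ets1, another ETS factor, at 0.92 ± 0.18. Myb, Lef1 and Ikzf3 followed at 0.88, 0.88 and 0.73, and Ebf1 completes the called loci at 0.63. Their edgeR adjusted p lay between 0.000442 and 0.0311. The count of 7 moved with scaling and single libraries. It was 3 with library-size scaling, 0 with library sizes from repeat windows and 1 against a minimum fold of 1.5. It was 3 without cDC replicate 1, 1 without cDC replicate 2 and 11 without pDC replicate 2, where 1 locus also passed toward cDCs. The shares of all loci called toward pDCs were 6.45%, 0.197% and 2.44% in the first 3 of these fits and 3.42%, 4.42% and 24.4% in the others. By unadjusted p below 0.05, 9 loci passed toward pDCs and 0 toward cDCs, and DESeq2 called 7 and 0. Differences between this list and the others were not tested.

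For V(D)J end joining, 1 of 13 loci rose in pDCs, 12 were not called and 0 fell, with a median log2 fold of 0.19. The called locus was Polm, which encodes DNA polymerase mu, the nearest relative of Dntt. Its cDC libraries stood at 103 and 101 CPM and its pDC libraries at 264 and 212 CPM, a log2 fold of 1.23 ± 0.14 (edgeR adjusted p = 3.43e-05). Poll, another polymerase of that family, lay at 0.38 (edgeR adjusted p = 0.139). Of 11 measured loci of the pre-B receptor and its signalling, 3 rose in pDCs, 8 were not called and 0 fell, with a median of 0.14. These were Blnk, an adaptor of B cell receptor signalling that lies upstream of Dntt on chromosome 19 (0.82 ± 0.14), Plcg2 (0.40 ± 0.12) and the cyclin gene Ccnd3 (0.37 ± 0.12). By unadjusted p below 0.05, 2 end joining loci passed toward pDCs and 1 toward cDCs, and 4 and 0 of the pre-B receptor loci; DESeq2 called 1 and 0, and 2 and 0. The end joining counts toward pDCs and cDCs were 1 and 1 with library-size scaling, 0 and 0 with library sizes from repeat windows, 1 and 2 without pDC replicate 1, and 3 and 1 without pDC replicate 2. The pre-B receptor count toward pDCs was 1 with library-size scaling and without either cDC replicate, 0 with library sizes from repeat windows and against a minimum fold of 1.5, and 6 without pDC replicate 2, where 24.4% of all loci were called toward pDCs. Vpreb2, the close copy of Vpreb1, had no tested window within 20 kb.

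The cell type labels were set against PU.1 signal at marker loci, which is not expression. The counts stand against 11% of all loci higher in pDCs and 7.98% in cDCs. Of 8 pDC marker loci, 3 were higher in pDCs (Bst2, Ly6d and Siglech) and 0 in cDCs, and of 8 cDC marker loci, 2 were higher in cDCs (Zfp366 and H2-Eb1) and 1, Sirpa, in pDCs. Of 11 measured B cell marker loci, 4 rose in pDCs (Blk, Pax5, Ebf1 and Bank1), 7 were not called and 0 fell. Pax5 and Ebf1 were counted among the called regulators above as well. The signal of the 11 loci summed to 868 and 822 CPM in cDCs and 1184 and 977 CPM in pDCs. The defining genes Cd79a and Ms4a1 had log2 folds of 0.14 and 0.30 without a call, and Cr2 had no tested window. Of 10 T and NK cell marker loci 0 were called in either direction by edgeR, with sums of 352 and 332 CPM in cDCs and 356 and 345 CPM in pDCs; by unadjusted p below 0.05 1 passed in each direction, and DESeq2 called 0. The T and NK cell counts toward pDCs and cDCs were 0 and 1 with library-size scaling, where 6.45% and 11.2% of all loci were called. The B cell count toward pDCs was 2 against a minimum fold of 1.5, where 2.44% of all loci were called. The cDC marker counts toward pDCs and cDCs were 0 and 2 with library-size scaling, and 0 and 0 against a minimum fold of 1.5. With library sizes from repeat windows no marker locus of these lists was called, and with library-size scaling the B cell count was 2 and that of pDC markers 3. The pDC marker count was 2 against a minimum fold of 1.5. Fits that leave out 1 library moved the counts of all these lists, and the shares of all loci with them. There the B cell count fell without either cDC replicate and rose without pDC replicate 2. T and NK cell loci passed in both directions without either pDC replicate. The part of B cells or their progenitors in the Dntt and Vpreb3 results was not tested.

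The loci whose signal over the 4 PU.1 libraries was most like that of a called member were found by the Euclidean distance of centred log2 CPM, among 13588 loci with a mean of at least 10 CPM and no window in common with the members. For Dntt the nearest was Galnt14, at a distance of 0.080, followed by Pitpnm2, Sbspon, Tcl1b1 and Cd7, at up to 0.141. Their log2 folds lay between 1.53 and 1.64. For Vpreb3 they were Snn, Scn3a, Rora, Jakmip1 and Msh3, at distances of 0.086 to 0.141 and log2 folds of 1.33 to 1.46. With 4 libraries in 2 cell types, likeness here is mostly a like fold between the cell types.

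Over all listed windows the PU.1 libraries totalled 6896416 to 11388554 counts, with the lower totals in pDCs, and the input 2776490. Windows cover part of the genome and a read may be counted in several of them, so these totals are not the sequencing depth, which is unknown. Repeat windows, those with at least 1000 input counts, held 74.6% of the input counts and 9.15 to 18% of those of the PU.1 libraries, with the highest share in pDC replicate 2.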

How the data were processed

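PU.1 ChIP-seq libraries of cDCs and pDCs (2 each) and 1 cDC input were analysed from raw read counts per window, as the authors deposited them. The submitters' processing notes name Subread 1.4.4 and build mm10. Which step Subread did, how reads were extended and filtered and how windows were chosen is not given in the sources used here. Windows are 10 bp wide on a 50 bp grid, and no listed window had fewer than 33 counts in all 5 libraries together. The table equalled the deposited counts of each sample.

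Windows were kept with filterByExpr at a minimum count of 10 (286435 of 329996). The quasi-likelihood test of edgeR 4.0.16 (limma 3.58.1, R 4.3.3) with TMM factors and cell type as the only term was fitted to all of them, with adjustment at 0.05 and a common biological coefficient of variation of 0.158. Sites are windows at most 100 bp apart, split at 5000 bp. Site p-values came from the Simes method, and locus sums of tested windows were tested over all protein-coding genes of RefSeq GRCm38.p6. The SE is the one implied by the F statistic. CPM are counts scaled to TMM-adjusted library sizes. The procedures were tested on simulated data. DESeq2 1.42.0 was an alternative.

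Sites described in full are those called and the strongest of each locus, and of each gene list the called loci, at most 6 by fold; Ebf1, the called regulator after the first 6, was named after its value was seen, as were the marker loci and uncalled loci named. The members and lists were chosen with earlier results of these data known.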

Additional observations from a re-analysis of the deposited data

How the results depend on the processing

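Calls of member sites, windows and loci were recomputed with 1 choice changed at a time; the gene lists were recounted only in fits with the same windows and flanks, the counts above input only under 2 other scalings and a 4-fold minimum, and the Dntt site ratios, the likeness and the promoter results under no alternative. Over the 4 fits that leave out 1 library, the member sites higher in pDCs numbered 2 to 4 and those higher in cDCs 0 to 1, member windows 7 to 17 and 0 to 2, and member loci higher in pDCs 1 to 2, where 3.33 to 13.3% of all sites, 2.75 to 12% of all windows and 3.42 to 24.4% of all loci were called toward pDCs. By the DESeq2 Wald test 1 site and 7 windows were higher in pDCs (2.41% and 2.9% of all) and 0 and 0 in cDCs (0.705% and 1.14%). Testing only windows with a mean of 30 counts or more, pDCs were higher at 1 site, 4 windows and 1 locus (10.1%, 9.76% and 9.72% of all). There cDCs were higher at 0 sites and 0 windows (11.6% and 11% of all). Few member windows reach that count. Only the Dntt site 12.7 kb upstream and the Dntt locus had a value in this fit. No other member site could be called there, so the 0 calls toward cDCs say nothing of the others. With library sizes from repeat windows, which moved the median log2 fold of all windows from 0.01 to -0.54, the members higher in pDCs were 2 sites, 8 windows and 0 loci (1.7%, 1.34% and 0.197% of all). There the loci of Igll1 (-0.25), Rag1 (-0.25) and Vpreb1 (-0.31) and the site at Vpreb1 (-0.29) changed sign without a call, where the median of all loci was -0.46. Library-size scaling moved the median of all windows to -0.11. Against a minimum fold of 1.5, 2 sites, 12 windows and 1 locus were higher in pDCs (4.62%, 4.09% and 2.44% of all). In the same fit 1 site, 1 window and 0 loci were higher in cDCs (2.34%, 2.48% and 1.01% of all). Member flanks of 10 kb left 3 site calls toward pDCs and 0 toward cDCs. Flanks of 50 kb gave 8 calls toward pDCs and 1 toward cDCs. The flank also changes how many sites are members, and that number is not given here. These calls thus cannot be set against the 4 of 9 above. The shares of all sites stayed at 8.45% toward pDCs and 6.02% toward cDCs. With 50 kb, and with the gene span alone, 1 locus was higher in pDCs (11.6% and 9.09% of all loci). Rag1, Rag2, Vpreb1 and Igll1 hold no window in their spans, and Rag2 none with 10 kb, so these gave no value. Windows called above input numbered 36 in cDCs and 41 in pDCs with library sizes from repeat windows (97.7% and 91.8% of all windows). With sizes from outside them they were 0 and 0 (1.38% and 1.71%). The cause of these changes was not tested.

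The sources used here state no pairing of libraries by replicate number, and whether libraries of the same number share a culture is not given. The replicate differences of cDCs and pDCs had a correlation of 0.0153 over windows. With the replicate number as a block, the calls toward pDCs were 4 sites, 18 windows and 2 loci (8.88%, 8.08% and 11.9% of all). Toward cDCs they were 1 site, 2 windows and 0 loci (7.1%, 6.89% and 8.92% of all), and no member site or locus gained or lost its call. Over all sites of the genome the share called ran from 3.11% by DESeq2 to 25.9% without pDC replicate 2, against 14.5%. The separation of libraries at sites without TMM factors was computed after the data were seen. Counts were low: at the strongest windows of the 9 sites a PU.1 library had between 1 and 59 counts.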
